A study of Mus musculus with 9 samples.

Results

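Interferon-stimulated genes are the genes that cells switch on when interferon, a secreted antiviral signal, reaches its receptor. A list of 39 such genes was followed through the reprogramming of mouse fibroblasts to induced pluripotent stem (iPS) cells. The list was chosen with earlier results of these data known, so comparing its shares with those of all genes is descriptive. A gene was represented by the array row that the platform table assigns to exactly 1 symbol, and a gene with several such rows by the brightest of them on average over all 9 arrays. By this rule 36 of the 39 were measured, among 19937 genes in all. Isg15, Ifi44 and Gbp2 had no row with exactly 1 symbol and are not analysed here.

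The series holds 3 groups of 3 arrays. Every group carries the OG2-GFP/Rosa26-M2rtTA background, which supplies a reporter and the transactivator that answers to doxycycline, and traces back to cells reprogrammed with Tet1, Sox2, Klf4 and c-Myc, the TSKM factors, under control of the drug. The fibroblasts were taken at passage 4 from mice made with TSKM iPS cells. The TSKM-3D cells are such passage 4 fibroblasts after 3 days of doxycycline, and their feeder medium had also been replaced by stem cell medium that holds LIF. The iPS cells, 1 line at passages 10 to 15, grew in that medium on mitomycin-treated embryonic fibroblasts, which were cleared by a short plating step before collection. Whether the 3 arrays of any group represent independent cultures is not stated, so p-values reflect only array-to-array spread, possibly technical.

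Type I interferon binds the receptor chains Ifnar1 and Ifnar2, and the kinases Jak1 and Tyk2 then act on Stat2, which works with Irf9 in the transcription factor complex ISGF3. ISGF3 binds an interferon-stimulated response element (ISRE) in its target genes. Interferon gamma acts through Ifngr1, Ifngr2, Jak1 and Jak2, and its target genes carry a gamma-activated site (GAS). Mouse embryonic stem cells are known for producing little interferon in response to viral RNA and for a weak response to it.

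Values are the authors' log2 expression values, on which a difference of 1 is a factor of 2. Array medians over all rows were 6.04 to 6.05 on fibroblast arrays, 6.01 to 6.20 on TSKM-3D arrays and 6.20 to 6.23 on iPS arrays. The second TSKM-3D array stood somewhat apart, with correlations to the others of its group of 0.983 and 0.986, against 0.991 between those others. The third fibroblast array carries a cell type label of 3-day induced cells but a fibroblast title. Its correlations to both remaining fibroblast arrays were 0.995 and 0.997, and the counts of called interferon-stimulated genes did not change without the third fibroblast array or without the second TSKM-3D array. Tet1 read lower on the TSKM-3D arrays than on the fibroblast arrays, 6.97 ± 0.05 against 8.10 ± 0.07 (SD, n = 3 each), which goes against the label of induced cells, while Sox2 and Myc read higher and Klf4 differed by 0.04 (limma adjusted p = 0.708). A row may read an introduced copy, the cell's own transcript or both. Of 11 measured fibroblast markers 9 were lower in iPS cells than in fibroblasts, against 13.8% of all genes. Of the pluripotent cell markers 11 of 11 were higher, against 7.63% of all genes.

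RefSeq windows on the GRCm38.p6 build, from 250 bases before to 50 after the annotated start, were found by symbol for 30 of the 39 genes. The ISRE core was searched on both strands as GAAA, any 2 bases (NN) and GAAA again, which reads TTTC, NN and TTTC on the other strand. It was present in 14 of these 30 genes (46.7%), against 1079 of 27025 genes (3.99%) in the whole table. The GAS letters TTCNNNGAA, which read the same on both strands, were present in 6 of the 30, against 9.55% of all genes. In Bst2 and Ifitm3 a GAS match overlapped an ISRE match. A match describes letters in these windows and says nothing of binding.

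The stretches below are those of the 5 genes that changed in at least 1 comparison and hold an ISRE core wholly upstream of the start. They are shown because genes that fell in TSKM-3D cells and a gene that was highest in iPS cells carry the same core. Capitals mark the ISRE core, and letters run 5′ to 3′ on the gene's strand. Coordinates on GRCm38.p6 are chr10:128270256-128270305 on the plus strand for Stat2, chr19:34640765-34640833 on the plus strand for Ifit1, chr19:34583353-34583436 on the plus strand for Ifit3, chr7:140955978-140956027 on the minus strand for Ifitm2 and chr8:71537567-71537622 on the minus strand for Bst2.
Stat2: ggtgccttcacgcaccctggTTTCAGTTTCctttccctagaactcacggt
Ifit1: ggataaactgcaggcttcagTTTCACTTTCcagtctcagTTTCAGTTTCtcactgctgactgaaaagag
Ifit3: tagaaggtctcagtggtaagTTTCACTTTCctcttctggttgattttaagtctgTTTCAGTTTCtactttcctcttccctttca
Ifitm2: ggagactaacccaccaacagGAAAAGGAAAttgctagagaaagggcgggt
Bst2: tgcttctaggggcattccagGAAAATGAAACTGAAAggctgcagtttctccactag

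In Ifit1 and Ifit3 the core occurred as a pair of separate matches, and in Bst2 as a pair that overlap. Genes with the core were found both among those called and among those not called. Among genes with a window, 4 of 8 that were lower in TSKM-3D cells than in fibroblasts held it, as did 8 of 18 that were not called there. Of the 10 with a window that were higher in iPS cells than in TSKM-3D cells 3 held it, and of the 15 not called 9 did.

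**Figure D1:**
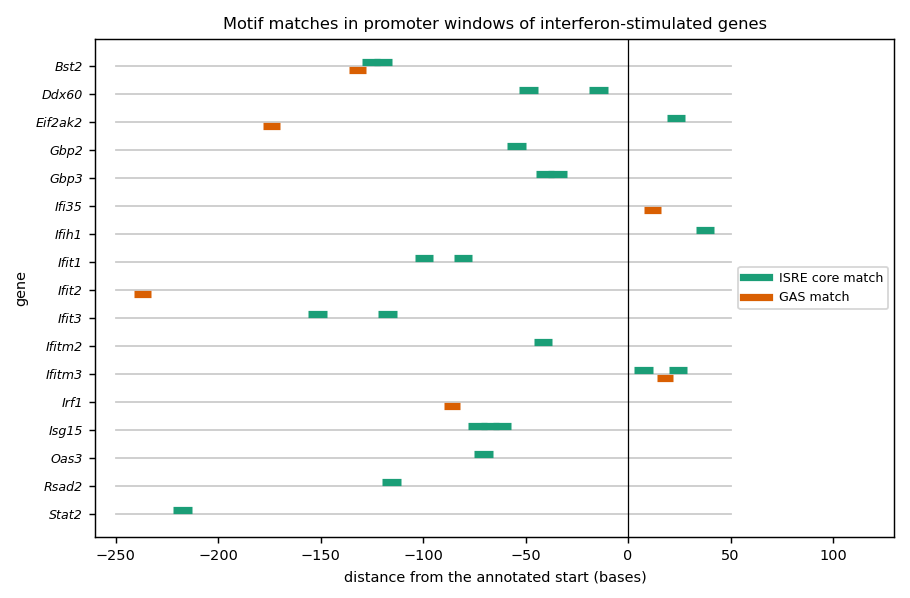
Positions of ISRE core (green) and GAS (orange) matches in promoter windows of the listed genes that hold at least 1 match, in bases from the annotated start (x axis, 0 is the start), with 1 gene per row. Matches lie both before the start, as in Ifit1 and Stat2, and after it, as in Ifih1 and Ifitm3.

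After 3 days of doxycycline, 11 of the 36 measured interferon-stimulated genes were lower than in fibroblasts and 1, Ifitm1, was higher. Calls required a 2-fold change or more together with a limma p under 0.05 after Benjamini-Hochberg adjustment over all genes. Called lower were 30.6% of the 36, against a background of 7.58% of all genes, and called higher 2.78%, against 3.25%. The list's median log2 difference was -0.36, and that of all genes 0.05. All 3 TSKM-3D arrays lay below all 3 fibroblast arrays for 21 genes (58.3%, against 28.3% of all genes) and above them for 3 (8.33%, against 24.8%). The genes called lower belong to several roles, from the ISGF3 subunits to effectors that act on viral RNA. The RNA is from bulk cultures, so fewer cells of a type and less RNA per cell cannot be told apart.

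In iPS cells the direction turned for most of these. Compared with TSKM-3D cells, 15 of the 36 were higher and 2 lower, or 41.7% and 5.56%, against backgrounds of 6.48% and 8.57% of all genes. The list's median log2 difference was 0.65, and that of all genes -0.01. All iPS arrays lay above all TSKM-3D arrays for 25 genes (69.4%, against 24.2% of all genes) and below them for 2 (5.56%, against 25.3%). Compared with fibroblasts, 8 were higher in iPS cells (22.2%, against 7.63% of all genes) and 4 lower (11.1%, against 13.8%). Arrays of iPS cells and fibroblasts did not overlap for 20 genes in the higher direction (55.6%, against 33.1%) and 8 in the lower (22.2%, against 31.8%). The 3 comparisons share arrays, so a gene low in TSKM-3D cells enters the first and the second from the same 3 readings. The highest adjusted p among called genes of the list was 0.000396 in TSKM-3D cells against fibroblasts, 0.000342 in iPS against TSKM-3D cells and 1.84e-05 in iPS cells against fibroblasts, and no gene of the list reached 2-fold without passing it.

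**Figure D2:**
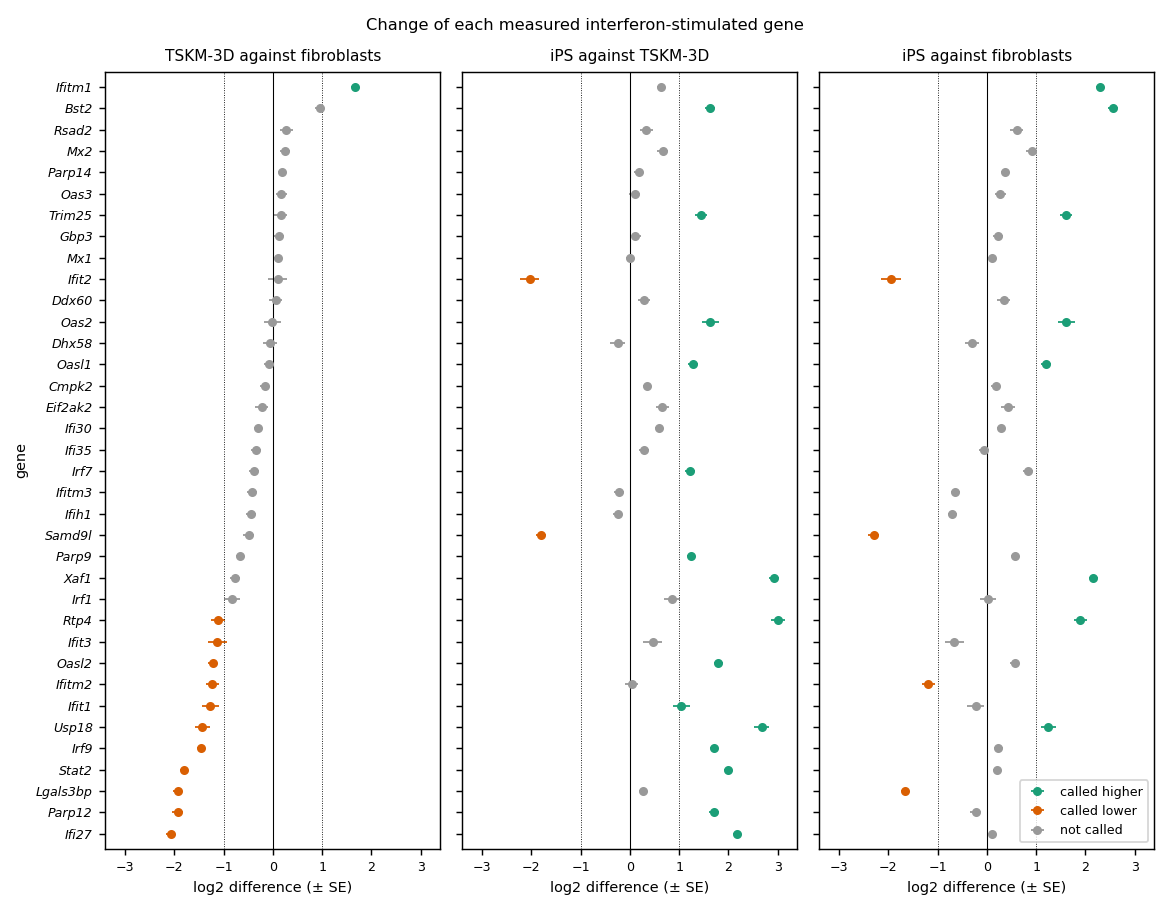
Log2 difference with its SE (x axis) for each of the 36 measured interferon-stimulated genes (rows, ordered by the change in TSKM-3D cells against fibroblasts) in the 3 comparisons, with n = 3 arrays per group and dotted lines at 2-fold. The genes at the foot of the left panel, led by Ifi27, lie between 1.04 and 3.01 in the middle panel, except Lgals3bp, Ifitm2 and Ifit3, and only Ifitm1 is called higher on the left.

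The transcription factors of the response are given first. Stat2, the ISGF3 subunit that carries its activation domain, read 8.56, 8.54 and 8.39 on the fibroblast arrays, 6.63, 6.78 and 6.68 on the TSKM-3D arrays and 8.66, 8.70 and 8.71 on the iPS arrays. The TSKM-3D arrays were the low ones, with no overlap with either other group. Stat2 differed by -1.80 ± 0.08 SE between TSKM-3D cells and fibroblasts (limma, Benjamini-Hochberg adjusted p = 1.01e-08) and by 1.99 ± 0.08 SE between iPS and TSKM-3D cells (adjusted p = 1.84e-09). In iPS cells it stood 0.20 above fibroblasts (adjusted p = 0.0515).

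Irf9, the DNA-binding subunit of ISGF3, followed Stat2 closely. It read 8.22, 8.33 and 8.15 on the fibroblast arrays, 6.78, 6.67 and 6.85 on the TSKM-3D arrays and 8.41, 8.54 and 8.45 on the iPS arrays. The TSKM-3D level was 2.76-fold lower than in fibroblasts (-1.47 ± 0.08 SE, limma adjusted p = 6.45e-08), and the iPS level 3.25-fold higher than in TSKM-3D cells (1.70 ± 0.08 SE, adjusted p = 1.06e-08). The iPS and fibroblast levels differed by 0.24, short of 2-fold.

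Irf7, which amplifies interferon production, was called in iPS against TSKM-3D cells alone. It read 6.56, 6.73 and 6.46 on the fibroblast arrays, 6.17, 6.29 and 6.13 on the TSKM-3D arrays and 7.23, 7.57 and 7.45 on the iPS arrays. Its iPS arrays were the high ones, 1.22 ± 0.10 SE above TSKM-3D cells (limma adjusted p = 1.26e-06), whereas the difference of TSKM-3D cells from fibroblasts was -0.39 ± 0.10 SE. Irf1, a factor that interferon gamma induces, was not called in any comparison. It read 7.82, 7.80 and 7.71 on the fibroblast arrays, 7.11, 6.48 and 7.26 on the TSKM-3D arrays and 7.95, 7.81 and 7.64 on the iPS arrays, and its low TSKM-3D readings were uneven. Without the third TSKM-3D array it passed 2-fold between iPS and TSKM-3D cells, at 1.01. A second, dimmer Irf1 row differed by 0.04 between TSKM-3D cells and fibroblasts, where the row used differed by -0.83.

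Among the effectors that fell and returned, Ifi27 had the largest change in TSKM-3D cells. Ifi27, a small interferon-induced membrane protein, read 9.90, 10.09 and 9.97 on the fibroblast arrays, 7.79, 7.95 and 8.003 on the TSKM-3D arrays and 10.13, 10.13 and 9.996 on the iPS arrays. It was 4.22-fold lower in TSKM-3D cells than in fibroblasts (-2.08 ± 0.09 SE, limma adjusted p = 8.4e-09) and 4.5-fold higher in iPS than in TSKM-3D cells (2.17 ± 0.09 SE, adjusted p = 2.3e-09). Its iPS and fibroblast arrays overlapped. Parp12, an antiviral ADP-ribosyltransferase, read 9.13, 9.22 and 8.97 on the fibroblast arrays, 6.96, 7.28 and 7.27 on the TSKM-3D arrays and 8.81, 8.99 and 8.85 on the iPS arrays. Again the TSKM-3D arrays stood alone at the low end, -1.94 ± 0.11 SE from fibroblasts (adjusted p = 5.67e-08), and iPS cells stood 1.71 ± 0.11 SE above them (limma adjusted p = 8.95e-08).

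Oasl2, a relative of the oligoadenylate synthetases, had values of 7.20, 7.42 and 7.21 in fibroblasts, 6.09, 5.91 and 6.17 in TSKM-3D cells and 7.87, 7.85 and 7.82 in iPS cells. The TSKM-3D values lay below all others, -1.22 ± 0.09 SE from fibroblasts (limma adjusted p = 6.03e-07), and the iPS values above all others, 1.79 ± 0.09 SE from TSKM-3D cells (adjusted p = 1.6e-08). Its neighbour on chromosome 5, Oasl1, which in mouse holds back translation of Irf7, had values of 7.10, 7.34 and 7.20 in fibroblasts, 7.16, 7.27 and 6.95 in TSKM-3D cells and 8.48, 8.32 and 8.42 in iPS cells. Oasl1 showed no such low point: TSKM-3D cells and fibroblasts overlapped and differed by -0.09 ± 0.10 SE, while iPS cells were 1.28 ± 0.10 SE above TSKM-3D cells (limma adjusted p = 5.91e-07).

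A stronger return was seen for Usp18 and Rtp4, which passed the fibroblast level in iPS cells. Usp18 removes Isg15 from proteins and, at the receptor chain Ifnar2, restrains interferon signalling. It read 7.29, 7.99 and 7.42 on the fibroblast arrays, 6.11, 6.09 and 6.20 on the TSKM-3D arrays and 8.89, 8.85 and 8.68 on the iPS arrays. The groups were fully separate, TSKM-3D cells lowest and iPS cells highest. The TSKM-3D value was -1.43 ± 0.15 SE from fibroblasts (limma adjusted p = 9.88e-06), and the iPS value 2.67 ± 0.15 SE from TSKM-3D cells and 1.24 ± 0.15 SE from fibroblasts (adjusted p = 3.62e-08 and 1.84e-05).

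Rtp4, an interferon-induced chaperone of receptor transport, read 6.19, 6.37 and 6.08 on the fibroblast arrays, 5.29, 5.25 and 4.77 on the TSKM-3D arrays and 8.14, 8.23 and 7.97 on the iPS arrays. It had the largest change of the list between iPS and TSKM-3D cells, 3.01 ± 0.14 SE or 8.05-fold (limma adjusted p = 6.79e-09), and stood 1.90 ± 0.14 SE above fibroblasts in iPS cells. Its fall in TSKM-3D cells, -1.11 ± 0.14 SE, was -0.94 without the third TSKM-3D array and then missed 2-fold. Xaf1, which counters an inhibitor of apoptosis, had a similar course: 5.90, 6.04 and 5.87 in fibroblasts, 5.36, 5.05 and 5.09 in TSKM-3D cells and 8.12, 8.05 and 8.11 in iPS cells. The difference of TSKM-3D cells from fibroblasts, -0.77 ± 0.09 SE, was under 2-fold, and iPS cells were 7.61-fold above TSKM-3D cells (2.93 ± 0.09 SE, limma adjusted p = 4.45e-10). Rtp4 and Xaf1 were dim on TSKM-3D arrays, whose lower quartiles were 4.61 to 4.73, so the sizes of these changes are uncertain.

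**Figure D3:**
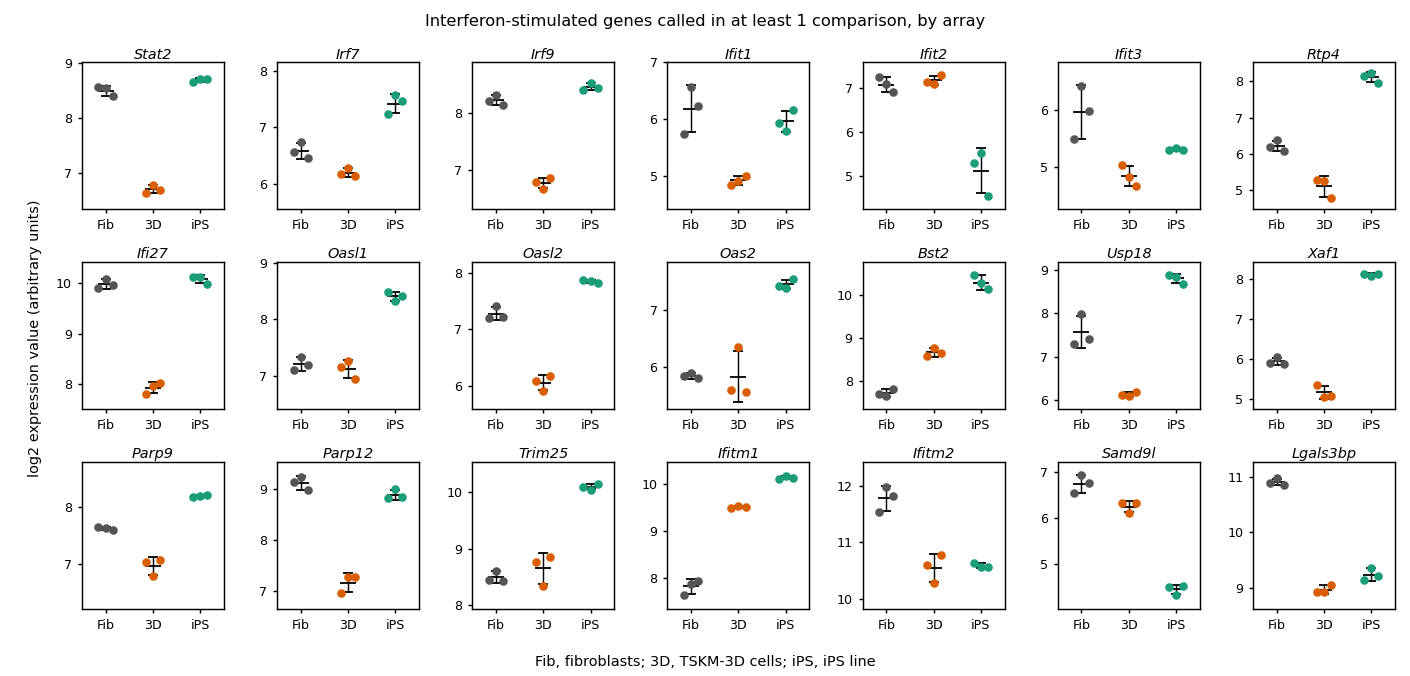
Log2 expression values (y axis, 1 panel per gene) of the 21 interferon-stimulated genes called in at least 1 comparison, on each fibroblast (Fib), TSKM-3D (3D) and iPS array, with group means and SD bars (n = 3 each). Stat2, Irf9, Ifi27, Parp12, Oasl2 and Usp18 have their 3 TSKM-3D points below all others, whereas Bst2 and Ifitm1 are lowest in fibroblasts and highest in iPS cells.

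The Ifit proteins bind foreign RNA and block its translation, and the 3 measured genes did not move together. Ifit1 read 5.74, 6.57 and 6.24 on the fibroblast arrays, 4.84, 4.90 and 5.003 on the TSKM-3D arrays and 5.94, 5.78 and 6.16 on the iPS arrays. The fibroblast arrays were spread widely, yet all lay above the TSKM-3D arrays (-1.27 ± 0.17 SE, limma adjusted p = 8.74e-05). Ifit1 was higher again in iPS than in TSKM-3D cells, by 1.04 ± 0.17 SE (adjusted p = 0.000342), but by 0.94 without the third iPS array.

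Ifit3 read 5.49, 6.44 and 5.98 on the fibroblast arrays, 5.03, 4.83 and 4.67 on the TSKM-3D arrays and 5.29, 5.33 and 5.29 on the iPS arrays. It fell in TSKM-3D cells against fibroblasts (-1.13 ± 0.19 SE, limma adjusted p = 0.000396), though without the second fibroblast array the difference was -0.89 and missed 2-fold. Its difference of iPS from TSKM-3D cells, 0.47 ± 0.19 SE, did not pass (adjusted p = 0.066). Ifit2, the next gene on chromosome 19, took the other course, with 7.24, 7.08 and 6.90 on the fibroblast arrays, 7.13, 7.09 and 7.27 on the TSKM-3D arrays and 5.31, 5.52 and 4.56 on the iPS arrays. TSKM-3D cells and fibroblasts overlapped for Ifit2 (0.10 ± 0.20 SE), and iPS cells were 4.1-fold below TSKM-3D cells (-2.04 ± 0.20 SE, limma adjusted p = 4.24e-06), where the readings were dim and uneven.

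The Ifitm genes, neighbours on chromosome 7 whose products block virus entry at membranes, also differed in direction. Ifitm1 read 7.65, 7.88 and 7.94 on the fibroblast arrays, 9.47, 9.52 and 9.50 on the TSKM-3D arrays and 10.11, 10.16 and 10.11 on the iPS arrays. It was the gene of the list called higher in TSKM-3D cells, 3.18-fold above fibroblasts (1.67 ± 0.09 SE, limma adjusted p = 3.25e-08). The iPS arrays lay higher still, 0.63 ± 0.09 SE above TSKM-3D cells and 2.30 ± 0.09 SE above fibroblasts (adjusted p = 6.29e-05 and 7.51e-10). Its second row gave 2.15 in TSKM-3D cells against fibroblasts.

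Ifitm2, adjacent to Ifitm1, read 11.54, 11.97 and 11.82 on the fibroblast arrays, 10.60, 10.28 and 10.78 on the TSKM-3D arrays and 10.63, 10.58 and 10.57 on the iPS arrays. It fell in TSKM-3D cells against fibroblasts (-1.23 ± 0.13 SE, limma adjusted p = 1.31e-05) and differed by 0.04 ± 0.13 SE between iPS and TSKM-3D cells. Its other rows differed by -0.89 and -1.36 between TSKM-3D cells and fibroblasts, of which -0.89 was short of 2-fold. Ifitm3 read 11.91 to 12.12 on TSKM-3D arrays and 12.43 to 12.49 on fibroblast arrays, a difference of -0.42 ± 0.10 SE, and 11.64 to 11.96 on iPS arrays. These paralogs are alike in sequence, and whether their array rows share probes is not given in the sources used here.

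Bst2, the tetherin that holds budding viruses at the cell surface, had its lowest values in fibroblasts and its highest in iPS cells, as Ifitm1 did. It read 7.70, 7.65 and 7.82 on the fibroblast arrays, 8.58, 8.78 and 8.66 on the TSKM-3D arrays and 10.47, 10.27 and 10.13 on the iPS arrays. No groups overlapped. The step to TSKM-3D cells, 0.95 ± 0.10 SE (limma adjusted p = 9.8e-06), was just under 2-fold, and 1.07 after quantile normalization. From there iPS cells stood 1.62 ± 0.10 SE higher (adjusted p = 7.52e-08). Over fibroblasts the iPS difference was 2.57 ± 0.10 SE, or 5.93-fold, the largest rise of the list in that comparison.

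A further set was near the fibroblast level in TSKM-3D cells and higher in iPS cells. Trim25, a ubiquitin ligase that activates the RNA sensor RIG-I, read 8.45, 8.61 and 8.42 on the fibroblast arrays, 8.76, 8.34 and 8.86 on the TSKM-3D arrays and 10.10, 10.04 and 10.14 on the iPS arrays. The iPS arrays lay well above both other groups, which overlapped, and the iPS difference from TSKM-3D cells was 1.44 ± 0.12 SE (limma adjusted p = 1.2e-06). Oas2, which makes the short adenylate chains that activate RNase L, read 5.83, 5.89 and 5.80 on the fibroblast arrays, 5.59, 6.34 and 5.55 on the TSKM-3D arrays and 7.43, 7.39 and 7.55 on the iPS arrays. The second TSKM-3D array was the high one of its group, and iPS cells still stood 1.63 ± 0.17 SE above TSKM-3D cells (adjusted p = 7.53e-06). Oas3, its neighbour, was not called in any comparison and ranged over 5.20 to 5.56 in fibroblasts, 5.54 to 5.71 in TSKM-3D cells and 5.59 to 5.87 in iPS cells.

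Parp9, which works with the ubiquitin ligase Dtx3l in antiviral ADP-ribosylation, read 7.66, 7.64 and 7.61 on the fibroblast arrays, 7.04, 6.79 and 7.07 on the TSKM-3D arrays and 8.19, 8.21 and 8.23 on the iPS arrays. Groups were separate, TSKM-3D cells lowest by -0.67 ± 0.08 SE from fibroblasts, under 2-fold, and iPS cells 1.24 ± 0.08 SE above TSKM-3D cells (limma adjusted p = 1.89e-07). Parp14, close to Parp9 on chromosome 16, differed by 0.19 ± 0.09 SE between TSKM-3D cells and fibroblasts and by 0.18 ± 0.09 SE between iPS and TSKM-3D cells.

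Ifit2, Ifitm2, Samd9l and Lgals3bp ended below their fibroblast level in iPS cells. Samd9l, a restraint on cell growth and translation, read 6.54, 6.92 and 6.75 on the fibroblast arrays, 6.31, 6.10 and 6.31 on the TSKM-3D arrays and 4.48, 4.31 and 4.51 on the iPS arrays. The iPS arrays were the low ones, 3.49-fold below TSKM-3D cells (-1.80 ± 0.11 SE, limma adjusted p = 6.53e-08). The iPS readings were under the lower quartile of all rows of their arrays, 4.73 to 4.76, and the size of the fall is uncertain. Lgals3bp, a secreted galectin-binding glycoprotein, read 10.89, 10.97 and 10.85 on the fibroblast arrays, 8.93, 8.92 and 9.05 on the TSKM-3D arrays and 9.15, 9.36 and 9.21 on the iPS arrays. It had fallen by TSKM-3D cells (-1.94 ± 0.08 SE, limma adjusted p = 8.94e-09), and iPS cells stood 0.27 ± 0.08 SE above TSKM-3D cells, under 2-fold.

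The other 15 measured genes were called in no comparison. Their differences between TSKM-3D cells and fibroblasts ran from -0.83 (Irf1) to 0.27 (Rsad2). Several well-known antiviral genes were dim throughout: Mx1, Mx2 and Ddx60 lay under the lower quartile of all rows on all 9 arrays, and their differences are uncertain. Mx2, a GTPase, still read 3.48, 3.62 and 3.65 on the fibroblast arrays, 3.63, 3.97 and 3.90 on the TSKM-3D arrays and 4.32, 4.61 and 4.56 on the iPS arrays, with all iPS arrays above the rest (0.66 ± 0.11 SE from TSKM-3D cells, limma adjusted p = 0.000299).

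Of the cytosolic RNA sensors, Ifih1 (MDA5) differed by -0.45 ± 0.10 SE in TSKM-3D cells against fibroblasts and by -0.70 ± 0.10 SE in iPS cells against fibroblasts. Dhx58 (LGP2) differed by -0.06 ± 0.15 SE and -0.30 ± 0.15 SE in the same comparisons. Eif2ak2, the RNA-activated kinase PKR, stood 0.66 ± 0.14 SE above TSKM-3D cells in iPS cells (limma adjusted p = 0.0015), under 2-fold. The lysosomal reductase gene Ifi30 read 0.59 higher in iPS than in TSKM-3D cells. Its 3 fibroblast values were identical, so its spread may be understated. The neighbours Rsad2 (viperin) and Cmpk2 (a nucleotide kinase), and Ifi35 and Gbp3, differed by 0.33, 0.35, 0.28 and 0.11 between iPS and TSKM-3D cells.

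Of 6 measured interferon receptor genes, 5 were called lower in iPS cells than in fibroblasts, and Ifnlr1, the chain specific to interferon lambda, was not. Of 15 measured ligand and receptor genes, 2 were lower and 0 higher in TSKM-3D cells than in fibroblasts, against 7.58% and 3.25% of all genes. In iPS against TSKM-3D cells 4 were lower and 0 higher, against 8.57% and 6.48%. In iPS cells against fibroblasts 5 were lower and 0 higher, against 13.8% and 7.63% (limma, 6, 7 and 7 of the 15 at an unadjusted p under 0.05 in the 3 comparisons). Ifnar2, the type I receptor chain that Usp18 binds, read 10.17, 10.36 and 10.37 on the fibroblast arrays, 8.91, 8.63 and 9.03 on the TSKM-3D arrays and 7.42, 7.54 and 7.54 on the iPS arrays. The groups were fully separate, in steps of -1.44 ± 0.11 SE for TSKM-3D cells against fibroblasts (adjusted p = 5.51e-07) and -1.36 ± 0.11 SE for iPS against TSKM-3D cells (limma adjusted p = 6.25e-07). Ifnar1, the other chain, averaged 8.30 ± 0.12 in iPS cells and 9.31 ± 0.05 in fibroblasts (SD, n = 3 each), a difference of -1.01 ± 0.10 SE (limma adjusted p = 3.77e-06).

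The interferon gamma receptor chains Ifngr1 and Ifngr2 were -2.74 ± 0.10 SE and -2.43 ± 0.08 SE from fibroblasts in iPS cells (limma adjusted p = 8.89e-10 and 1.96e-10). Il10rb, a chain shared with the interferon lambda receptor, was -2.05 ± 0.12 SE from fibroblasts. Ifnlr1 averaged 6.33 ± 0.20 in iPS cells and 5.50 ± 0.06 in fibroblasts, a difference of 0.83 ± 0.11 SE (limma adjusted p = 3.05e-05), with no overlap but under 2-fold. None of the 9 measured ligand genes was called in any comparison. Of all genes 3.25% were higher and 7.58% lower in TSKM-3D cells against fibroblasts. The shares were 6.48% and 8.57% in iPS against TSKM-3D cells, and 7.63% and 13.8% in iPS cells against fibroblasts. In limma 2, 1 and 1 of the 9 had an unadjusted p under 0.05 in these comparisons, in that order. Ifna11 (2.99 to 3.36) and Ifnk (3.62 to 4.12) lay under the lower quartile of all rows on every array, whereas Ifna5 and Ifnl2 lay above the medians. The lack of a call does not show steady ligand levels. Among 9 measured signal transducers 0 were higher and 4 lower in iPS cells than in fibroblasts, against 7.63% and 13.8% of all genes (limma, 7 of the 9 at an unadjusted p under 0.05). The kinase gene Jak2 averaged 6.43 ± 0.05 in iPS cells and 8.85 ± 0.03 in fibroblasts, and Jak1 9.30 ± 0.09 and 10.91 ± 0.10. Irf2, which competes with Irf1 at its sites, fell in TSKM-3D cells against fibroblasts (-1.11 ± 0.07 SE) and in iPS against TSKM-3D cells (-1.18 ± 0.07 SE, limma adjusted p = 6.67e-08). Stat3 differed by -1.31 ± 0.10 SE and Irf3, which starts interferon production, by -0.33 ± 0.09 SE between iPS cells and fibroblasts.

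**Figure D4:**
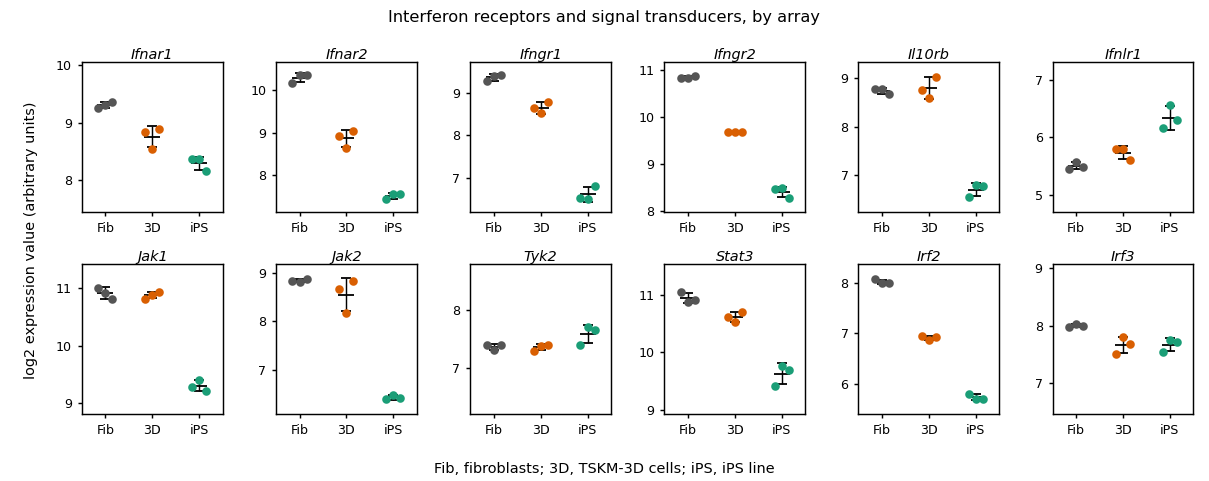
Log2 expression values (y axis, 1 panel per gene) of interferon receptor and signal transducer genes on each fibroblast (Fib), TSKM-3D (3D) and iPS array, with group means and SD bars (n = 3 each). Ifnar2, Ifngr2 and Irf2 step down through both stages, Jak1, Jak2 and Il10rb are low on iPS arrays, and Tyk2 differs little.

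Of 14 measured nucleic acid sensing genes, 4 were lower and 0 higher in TSKM-3D cells than in fibroblasts, against 7.58% and 3.25% of all genes (limma, 11 of the 14 at an unadjusted p under 0.05). In iPS cells against fibroblasts 5 were lower and 1, Aim2, higher, against 13.8% and 7.63% of all genes. Ddx58, the sensor RIG-I, had the low TSKM-3D readings of the ISGF3 genes: 9.32, 9.30 and 9.15 on the fibroblast arrays, 7.49, 7.40 and 7.91 on the TSKM-3D arrays and 9.48, 9.33 and 9.24 on the iPS arrays. It was -1.66 ± 0.13 SE from fibroblasts in TSKM-3D cells (limma adjusted p = 6.89e-07) and 1.75 ± 0.13 SE from TSKM-3D cells in iPS cells (adjusted p = 2.9e-07). The DNA sensor gene Aim2 rose by 3.00 ± 0.10 SE in iPS over TSKM-3D cells, and Tlr4 and the adaptor gene Myd88 were -2.18 and -1.73 from fibroblasts in iPS cells (limma adjusted p = 4.24e-10, 4.62e-07 and 3.49e-09).

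A second list of interferon-induced genes, with no gene in common with the 39, had 0 higher and 5 lower of 36 measured in TSKM-3D cells against fibroblasts, and 5 higher and 0 lower in iPS against TSKM-3D cells (limma, 23 and 25 at an unadjusted p under 0.05). Its median log2 differences were -0.30 and 0.44, those of all genes 0.05 and -0.01, and the called shares of all genes 3.25% and 7.58%, and 6.48% and 8.57%. In iPS cells against fibroblasts 4 were higher and 2 lower, against 7.63% and 13.8% of all genes. Irgm1, a GTPase of vacuole defence, read 8.38, 8.48 and 8.40 on the fibroblast arrays, 5.90, 5.87 and 6.08 on the TSKM-3D arrays and 9.53, 9.51 and 9.41 on the iPS arrays. Its TSKM-3D level was 5.54-fold lower than in fibroblasts and its iPS level 11.6-fold higher than in TSKM-3D cells (limma adjusted p = 1.61e-09 and 4.61e-11). Phf11d and Oas1a rose by 3.26 and 2.41 in iPS over TSKM-3D cells, and Lgals9 fell in TSKM-3D cells against fibroblasts (-1.70 ± 0.08 SE). This list, like the other lists of the pathway, was chosen with results of these arrays known.

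Markers of other cells moved between the same arrays. Of 17 macrophage markers, 6 were lower and 0 higher in TSKM-3D cells than in fibroblasts, against 7.58% and 3.25% of all genes. Lyz2 read 4.79 to 5.37 on TSKM-3D arrays and 9.10 to 9.26 on fibroblast arrays, and Cd53 5.22 to 5.41 and 8.19 to 8.27. Summed on the linear scale, the list ran from 838 to 972 units on TSKM-3D arrays and from 2260 to 2400 on fibroblast arrays, and from 2850 to 3220 on iPS arrays, where Laptm5 (10.45 to 10.79) and Cd68 (9.58 to 9.60) were high. No array value is 0; the defining markers Ptprc (4.99 to 5.05 on TSKM-3D arrays, 5.04 to 5.33 on fibroblast arrays) and Adgre1 (4.64 to 4.87 and 4.89 to 5.17) lay below the array medians throughout. The part of macrophage RNA in the fall of interferon-stimulated genes was not tested.

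Fibroblast markers summed to 7230 to 8970 units on iPS arrays, 19300 to 20100 on TSKM-3D arrays and 32500 to 33600 on fibroblast arrays. Such sums weigh the brightest genes most, and the markers did not all fall. In TSKM-3D cells against fibroblasts 6 of 11 were lower and 1, Twist1, higher (1.24 ± 0.11 SE), against 7.58% and 3.25% of all genes. Of the 11 differences 4 were positive. Col1a1 still read 11.20 to 11.71 on iPS arrays, which alone came from cultures on feeder fibroblasts. In iPS against TSKM-3D cells 6 of the 11 markers were lower and 1 higher, against 8.57% and 6.48% of all genes. The higher gene was Dcn, by 1.45 ± 0.10 SE, while 9 of the 11 differences were negative, Col1a1 among them (-0.85 ± 0.12 SE). The part of feeder RNA in the iPS levels was not tested. Endothelial and lymphocyte lists had 0 of 6 and 0 of 5 genes called in TSKM-3D cells against fibroblasts (limma, 2 and 2 at an unadjusted p under 0.05). Of all genes 3.25% were higher and 7.58% lower in that comparison. In iPS against TSKM-3D cells 1 gene of each list was higher, Pecam1 by 3.48 and Cd3g by 1.16, against 6.48% of all genes.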

How the data were processed

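RNA of 9 cell samples was measured on an Affymetrix whole-transcript array, 1 array each, after biotin labelling, per the labels' protocols. The deposited table holds log2 expression values made by the authors for 34760 rows; their normalization and the software behind it are not stated, and the values were used as deposited. Gene symbols came from GEO's annotation of the platform: 21640 carried 1 symbol, 1321 several and 11799 were not in it. Each of 19937 genes took its row with the highest mean. All 36 measured members matched the GRCm38.p6 RefSeq table by gene identifier.

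A single limma model (version 3.58.1, R 4.3.3; lmFit and eBayes) covered the 3 groups, with Benjamini-Hochberg adjustment over all genes and a call at an adjusted p under 0.05 and at least 2-fold. The fit was checked on simulated data. Alternatives were other scalings, row choice, a filter on dim genes, other call rules, the replicate number as a block and each array left out. The number of arrays limits the precision.

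The members and lists were chosen with earlier results of these data known. Genes were named by rule: listed members in full where called or where groups stood at least 1.5-fold apart without overlap, and up to 4 called genes of each other list with the largest change, with Irf3 and Ifnar1. Marker genes, Irf1 and the genes named among those not called were named beside the count they belong to.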

Additional observations from a re-analysis of the deposited data

How the results depend on the processing

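Counts of called interferon-stimulated genes kept within 1.5 times under array medians set equal, the mean of all rows of a gene, fits of only the compared groups and a trended robust spread. Leaving out each array in turn gave 1 to 1 higher and 10 to 11 lower in TSKM-3D cells against fibroblasts, 14 to 16 higher and 2 to 2 lower in iPS against TSKM-3D cells, and 8 to 8 higher and 4 to 4 lower in iPS cells against fibroblasts. In TSKM-3D cells against fibroblasts, quantile normalization gave 2 higher, because Bst2 passed 2-fold, and a test against 2-fold gave 5 lower. Placing the third fibroblast array with the TSKM-3D arrays gave 0 higher and 0 lower there, and 0 of all 19937 genes were called in that setting, against 2159 as reported. With no fold requirement 2 were higher and 20 lower in that comparison, 23 higher in iPS against TSKM-3D cells, and 18 higher and 7 lower in iPS cells against fibroblasts. Without dim genes, 24 members remained and 9 were lower in TSKM-3D cells against fibroblasts. In iPS against TSKM-3D cells 1 was then lower, since Samd9l was filtered out. Over all genes, the test against 2-fold called 1140 in TSKM-3D cells against fibroblasts and 1931 in iPS against TSKM-3D cells, and no fold requirement 8886, 9088 and 10883 in the 3 comparisons. Setting array medians equal moved the median of all genes to -0.13 in iPS against TSKM-3D cells and to -0.12 in iPS cells against fibroblasts, with list medians of 0.53 and 0.08.

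The labels do not say that replicate numbers mark shared cultures, and same-numbered arrays deviated together in no comparison (correlations of -0.10 to 0.06). With the replicate number as a block, 1 was higher and 11 lower in TSKM-3D cells against fibroblasts, 15 higher and 2 lower in iPS against TSKM-3D cells, and 8 higher and 4 lower in iPS cells against fibroblasts. Ifit1 in iPS against TSKM-3D cells missed 2-fold with array medians set equal (0.93) and after quantile normalization (0.95). No called gene of the list reversed under any alternative. Signal over background was not available, so dim readings limit Mx1, Mx2, Ddx60, Cmpk2, Ifit2 and Samd9l. Such readings also limit Ifit1 and Ifit3, at 4.84 to 5.003 and 4.67 to 5.03 on TSKM-3D arrays, whose lower quartiles were 4.61 to 4.73. On the same arrays they limit Rtp4, at 4.77 to 5.29, and Xaf1, at 5.05 to 5.36.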

Other observations

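Of 13 measured genes that restrain the response, 1 was higher and 1 lower in TSKM-3D cells than in fibroblasts, against 3.25% and 7.58% of all genes. In iPS cells against fibroblasts 2 were higher and 2 lower, against 7.63% and 13.8%, so the list's counts of lower genes were near the background. Tnfaip3 (A20), a brake on inflammatory signalling, averaged 8.91 ± 0.13 in TSKM-3D cells and 6.35 ± 0.05 in fibroblasts (SD, n = 3 each), a difference of 2.56 ± 0.09 SE (limma, Benjamini-Hochberg adjusted p = 1.78e-09), and was -2.01 ± 0.09 SE from TSKM-3D cells in iPS cells. Its peak in TSKM-3D cells is the opposite of the low point of Stat2, Irf9 and Usp18 on the same arrays. Adar, which edits RNA and so keeps sensors from the cell's own transcripts, was 1.35 ± 0.08 SE higher in iPS than in TSKM-3D cells (limma adjusted p = 5.9e-08). The phosphatase gene Ptpn6 was 1.69 ± 0.11 SE higher in the same comparison, and Pias1, an inhibitor of cytokine signalling, was -1.32 ± 0.12 SE from fibroblasts in TSKM-3D cells.

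Antigen presentation genes include many targets of interferon gamma. Of 13 measured, 0 were higher and 0 lower in TSKM-3D cells than in fibroblasts, against 3.25% and 7.58% of all genes. In limma 8 of the 13 had an unadjusted p under 0.05 there. In iPS cells against fibroblasts 1 was higher and 2 lower, near the 7.63% and 13.8% of all genes. Tapbp, a chaperone of peptide loading, rose by 1.38 ± 0.07 SE in iPS over TSKM-3D cells (limma adjusted p = 1.99e-08), and the peptide-trimming gene Erap1 was -1.16 ± 0.11 SE from TSKM-3D cells in iPS cells. The paired proteasome activator genes moved in opposite directions. In iPS cells against fibroblasts Psme1 was 1.02 ± 0.08 SE and Psme2 -1.09 ± 0.08 SE (limma adjusted p = 4.49e-07 and 2.34e-07).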
